A study of Mus musculus with 6 samples.

Results

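The immune checkpoint and costimulatory genes described here are Cd274, Pdcd1lg2, Cd80, Cd86, Cd276, Icosl, Havcr2, Lgals9, Cd28 and Nt5e. They were chosen by name, and all 10 have a row in the deposited table of 17890 genes. Most encode ligands, while Cd28 and Havcr2 encode receptors and Nt5e encodes an ectoenzyme. RNA was sequenced from mast cells of mouse lymph nodes, in 3 libraries from metastatic nodes (mLN) and 3 from uninvolved nodes (uLN). For neither group do the labels give a strain, genotype, age, tumour or treatment. The sources used here do not state how the mast cells were isolated. The comparison asks whether these transcripts differ between mast cells of nodes with and without metastasis.

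T cells need a further signal beside the antigen receptor, and B7 family ligands on other cells supply it. CD80 and CD86 engage the activating receptor CD28 and the inhibitory receptor CTLA-4, and ICOS ligand (Icosl) engages ICOS. PD-L1 (Cd274) and PD-L2 (Pdcd1lg2) engage an inhibitory receptor, PD-1, and restrain T cells. B7-H3 (Cd276) is a further B7 relative, often found on tumour and stromal cells. Galectin-9 (Lgals9) binds sugars on several surface proteins, among them TIM-3 (Havcr2), a receptor that mast cells are known to carry. CD73 (Nt5e) converts extracellular AMP to adenosine, which dampens immune cells.

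The 6 libraries held 17643916 to 17799420 estimated counts each. Levels are given as CPM, counts scaled to library size. All 13 mast cell markers that were checked, Kit, Fcer1a, Cpa3 and Tpsb2 among them, were expressed. Their summed level was 45400 to 48290 CPM in mLN and 46200 to 48260 CPM in uLN, with 5 higher and 5 lower in mLN, so the label of the cells fits their markers in both groups.

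The genes for PD-L2 and PD-L1 are neighbours on chromosome 19, where both run on the plus strand. In GRCm38, Cd274 spans chr19:29362107-29388095 and Pdcd1lg2 spans chr19:29410919-29472927, with 22824 bases between them. Icosl lies at chr10:78069368-78079525. The bases before a transcription start of each are shown because Pdcd1lg2 and Icosl were higher in mLN and Cd274 was not, as described next. They come from RefSeq's GRCm38.p6 annotation, read 5′ to 3′ on the plus strand, and capitals mark AGATAA, the letters of a GATA factor site, searched on both strands. The windows are chr19:29410669-29410918 for Pdcd1lg2, chr19:29367188-29367437 for Cd274 and chr10:78069118-78069301 for Icosl, the last cut short where an annotated exon begins. That of Cd274 lies inside the span given above, before a transcription start downstream of where the span begins.
Pdcd1lg2: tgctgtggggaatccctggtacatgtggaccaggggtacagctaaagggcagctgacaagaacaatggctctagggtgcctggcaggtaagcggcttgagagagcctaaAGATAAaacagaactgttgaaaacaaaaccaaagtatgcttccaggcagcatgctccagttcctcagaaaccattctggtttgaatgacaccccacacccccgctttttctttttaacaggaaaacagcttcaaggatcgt
Cd274: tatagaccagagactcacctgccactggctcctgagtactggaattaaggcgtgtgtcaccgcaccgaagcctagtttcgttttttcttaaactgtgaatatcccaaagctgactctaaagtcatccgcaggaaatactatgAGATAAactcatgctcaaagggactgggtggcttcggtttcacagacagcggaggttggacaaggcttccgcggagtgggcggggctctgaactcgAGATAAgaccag
Icosl: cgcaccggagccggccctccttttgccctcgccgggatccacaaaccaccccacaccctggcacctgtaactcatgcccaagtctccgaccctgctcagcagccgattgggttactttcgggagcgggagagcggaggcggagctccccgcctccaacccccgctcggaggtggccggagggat
GATA factors, GATA2 above all, are lineage regulators of mast cells. AGATAA occurred in the Cd274 window at 108 and 12 bases before the start and in the Pdcd1lg2 window at 141 bases before it, and in the 250 bases before 9.99% of 32851 mouse promoters. Among the 8 of the 10 genes with a promoter entry, no other had it. Other motifs were searched the same way in these 8 windows of 250 bases. TTCNNNGAA (STAT) and the NF-kB letters GGGA, any 2 bases, TTCC were in none, against 7.02% and 1.21% of all promoters. Only these exact letters were searched, so their absence does not show that a window lacks a looser form of such a site. The interferon element, GAAA, any 2 bases, GAAA, was in that of Lgals9 alone, against 2.98% of all. Havcr2 held RUNX (TGTGGT), hypoxia (ACGTG), AP-1 (TGANTCA) and ETS (GAGGAAG) letters, found in 14%, 16.6%, 6.75% and 10.6% of promoters. AP-1 letters were also in Cd80 and ETS letters in Cd276 and Lgals9. These are matches of letters and not shown to be sites.

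Ligands of the B7 family went separate ways. In mLN the PD-L2 gene was 2.36-fold higher and the ICOS ligand gene 3.65-fold higher, while PD-L1 and B7-H3 were not called and CD80 and CD86 were at or near 0 in both groups. Pdcd1lg2 had 56.1, 52.9 and 59.1 CPM in mLN replicates 1, 2 and 3, against 24.0, 24.1 and 23.2 CPM in uLN. Its groups were far apart and each was tight. The log2 fold change was 1.24 ± 0.06 (SE, 3 libraries a group), and its Benjamini-Hochberg adjusted p over all 12706 tested genes was 8.03e-08 by the quasi-likelihood test of edgeR. Icosl had 7.12, 7.51 and 7.29 CPM in mLN, against 2.24, 2.14 and 1.61 CPM in uLN. These rest on 127 to 135 reads per library in mLN and 28 to 39 in uLN, and the groups did not overlap. Its log2 fold change was 1.87 ± 0.17 (SE), with an edgeR adjusted p of 4.31e-06. Both calls held under each of the 12 alternative settings, with log2 fold changes of 1.20 to 1.28 for Pdcd1lg2 and 1.73 to 1.95 for Icosl when each library was left out in turn.

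**Figure D1:**
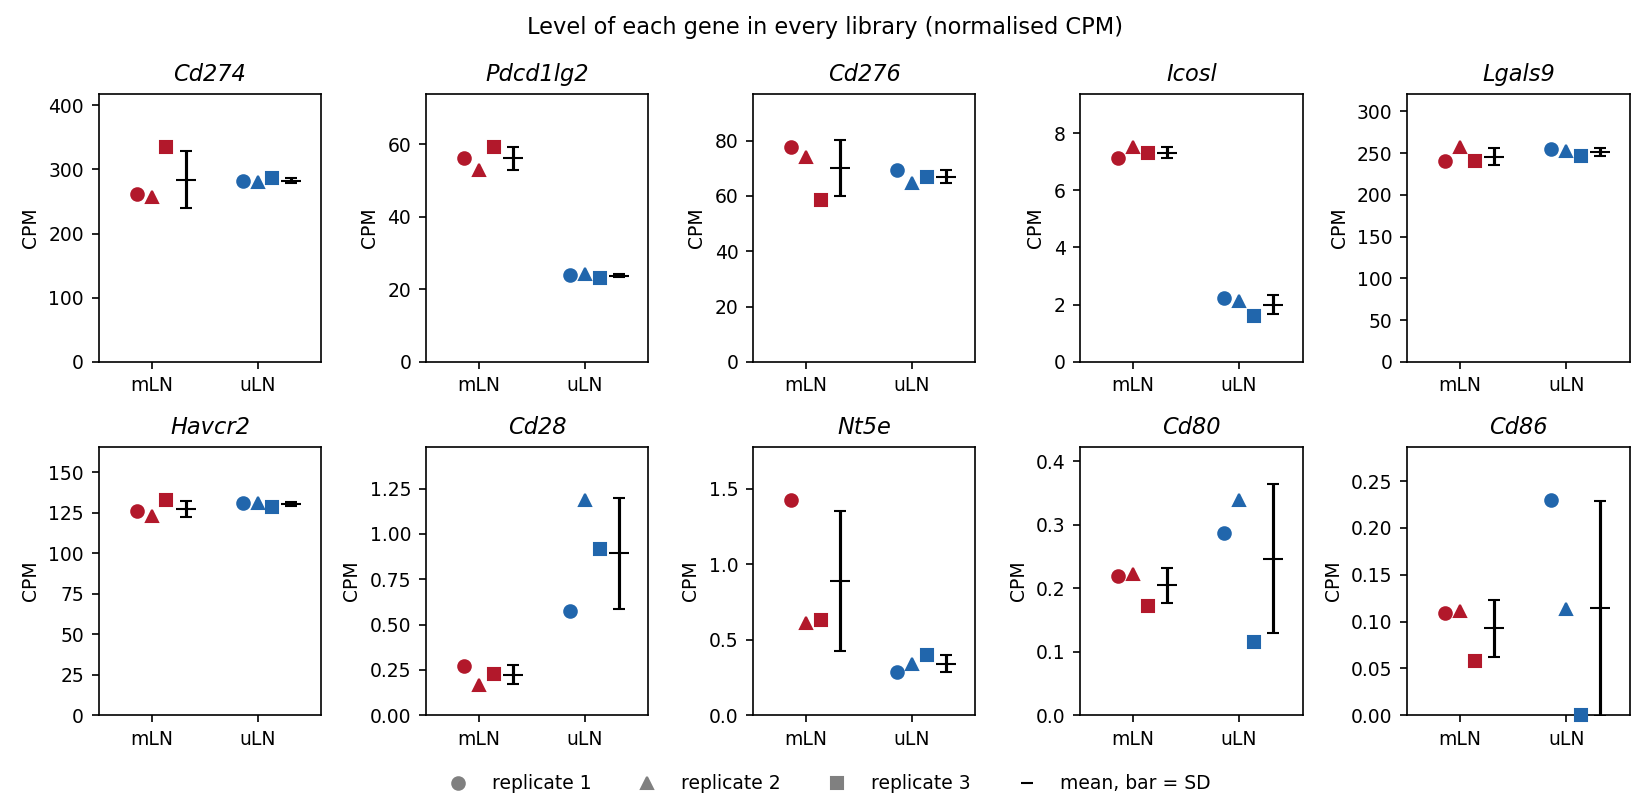
Level of each of the 10 genes in every library, as CPM (reads scaled to library size, y axis from 0, a separate scale for each gene), mLN left of uLN; symbols are replicates, and the black mark and bar are the mean and SD of 3 libraries. Pdcd1lg2 and Icosl lie higher in all mLN libraries and Cd28 lower, Nt5e is highest in mLN replicate 1, and Cd274, Cd276, Lgals9 and Havcr2 overlap between groups.

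Cd274 was among the most abundant of the 10 genes and was not called, at 284 ± 43.6 CPM in mLN and 283 ± 3.28 CPM in uLN (SD, n = 3 each). It had 260.8, 257.1 and 334.5 CPM in mLN replicates 1, 2 and 3, against 281.5, 279.9 and 286.2 CPM in uLN. Replicate 3 of mLN lay above every uLN library, and the other mLN libraries lay below them all. The log2 fold change was 0.01 with a 95% interval from -0.19 to 0.20, and an edgeR adjusted p of 0.943. Without mLN replicate 3 it was -0.12 and was called lower (edgeR adjusted p = 0.00228), and over the 12 settings the adjusted p ran from 0.00228 to 1. Cd276 (chr9:58524300-58555033) differed in that library in the opposite sense, with 77.6, 73.9 and 58.6 CPM in mLN, against 69.4, 64.6 and 66.8 CPM in uLN. Its log2 fold change was 0.07 with a 95% interval from -0.14 to 0.27 (edgeR adjusted p = 0.545), and 0.18 without mLN replicate 3, when it was called higher (edgeR adjusted p = 0.00248, within a range of 0.00248 to 1 over the settings).

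Replicate 3 of mLN stood apart over the whole table. A chi-square comparison per gene had a median of 2.58 and 2.48 between it and mLN replicates 1 and 2, against 0.736 between those and 0.655 to 0.700 among uLN libraries. Whatever sets it apart was not tested. The genes whose levels over the 6 libraries were most like those of Cd274, the most abundant tested gene here by CPM, were Retreg3 (Pearson's r = 0.99), Med13l (0.98) and C330007P06Rik (0.98). Only 29 of 12698 other tested genes had r over 0.95. Retreg3 shows what they share, with 107.5 CPM in mLN replicate 3, against 90.6 and 91.6 CPM in the other mLN libraries and 94.8 to 96.3 CPM in uLN.

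The levels of the PD-1 ligand genes were also set against each other, which restates the rise of Pdcd1lg2 beside an uncalled Cd274 and is given as a description. Taken per kb of annotated exon, the ratio of Pdcd1lg2 to Cd274 was 0.397, 0.380 and 0.327 (0.368 ± 0.0369, SD, n = 3) in mLN, against 0.157, 0.159 and 0.150 (0.155 ± 0.00489, SD, n = 3) in uLN. Groups did not overlap, and the ratio was 2.37 times as high in mLN. PD-L2 was also set beside B7-H3 per kb, with 28.6, 27.0 and 30.2 CPM per kb for Pdcd1lg2 in mLN, against 12.2, 12.3 and 11.8 CPM per kb in uLN. Cd276 had 21.2, 20.2 and 16.0 CPM per kb in mLN, against 19.0, 17.7 and 18.3 CPM per kb in uLN. Per kb, Pdcd1lg2 was thus above Cd276 in 3 of 3 mLN libraries and in 0 of 3 uLN libraries. This order rests on union exon lengths of 1961 and 3658 bases, with the isoforms in use unknown, and in CPM Pdcd1lg2 was above Cd276 in mLN replicate 3 alone (59.1 against 58.6 CPM).

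**Figure D2:**
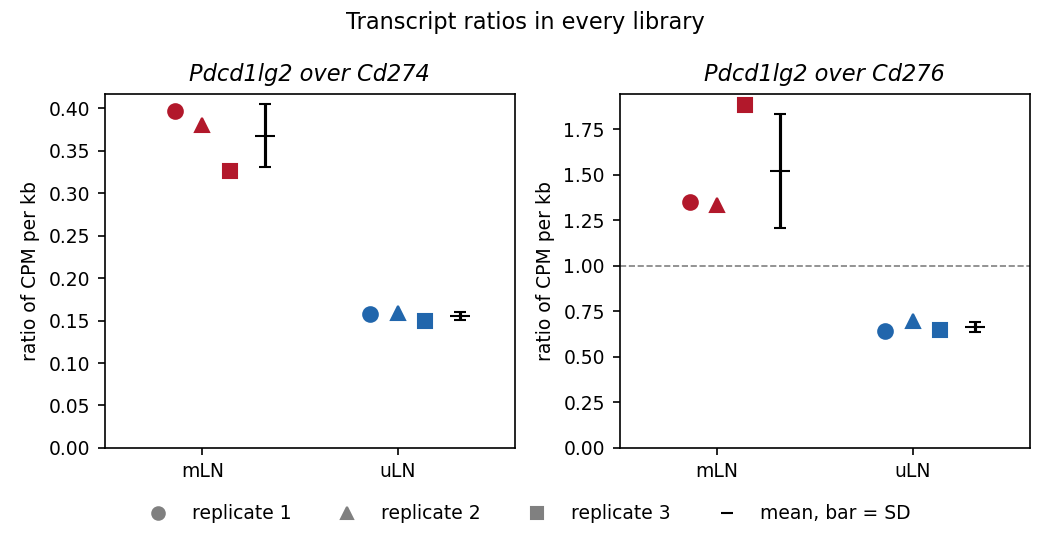
Ratio of Pdcd1lg2 to Cd274 (left) and to Cd276 (right) in every library, each as CPM per kb of exon, mLN left of uLN; symbols are replicates, the black mark and bar are the mean and SD of 3 libraries, and the dashed line marks equal levels. The ratio to Cd274 averaged 0.368 in mLN and 0.155 in uLN, and the ratio to Cd276 lay above 1 in the mLN libraries alone.

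CD80 and CD86, the ligands by which professional antigen-presenting cells reach CD28, were barely detected. Cd80 (chr16:38457430-38495958) had 4, 4 and 3 reads in mLN libraries and 5, 6 and 2 in uLN. Cd86 (chr16:36568956-36666158) had 2, 2 and 1 reads in mLN and 4, 2 and 0 in uLN, where a count of 0 allows up to 3 reads. Both fell under the expression filter and were not tested, and a difference was not detectable at this depth. Activated dendritic cells, macrophages and B cells carry these ligands. Dendritic cell markers summed to 16.6 to 18.7 CPM in mLN and 10.03 to 11.9 CPM in uLN, mostly from Itgax (13.2 and 7.17 CPM), a gene that myeloid cells share, which was called higher. The other tested markers, Zbtb46, Xcr1 and Fscn1, had 14 to 26 reads in mLN libraries and 10 to 28 in uLN and were not called. Of those under the filter, Ccr7, carried by activated dendritic cells, had 7, 9 and 5 reads in mLN and 2, 0 and 0 in uLN, and Clec9a had 4, 6 and 4 in mLN and 1 in each uLN library, both without overlap. Flt3, Cd209a, Siglech and Batf3 had at most 6 reads in any library, and their groups overlapped. Macrophage markers summed to 286.7 to 324.3 CPM in mLN and 351 to 493.3 CPM in uLN, with 3 of 11 tested higher and 8 lower. The direction of this sum came from Gpnmb (71.6 and 250.9 CPM), and the sum of the other macrophage markers was higher in mLN. Those called higher were Cd68 (90.2 and 24.9 CPM), Adgre1 (61.1 and 26.8 CPM) and Marco. In the B cell list, 1 of the 2 tested markers was higher and 1 lower, and Cd79a had 5 to 9 reads in mLN libraries and 3 to 5 in uLN. The part of such cells in the Icosl and Pdcd1lg2 values was not tested, and in bulk RNA a change in the share of cells and one in RNA per cell cannot be told apart.

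The genes for galectin-9 and TIM-3, a ligand and its receptor, were both abundant in the same libraries, and neither was called. Bulk RNA does not show whether the same cells carry both. Lgals9 (chr11:78962979-78984924) had 240.3, 257.1 and 240.4 CPM in mLN, against 254.8, 252.6 and 246.1 CPM in uLN. The group ranges overlapped, with a log2 difference of -0.03 and a 95% interval from -0.13 to 0.07 (edgeR adjusted p = 0.570). Havcr2 (chr11:46454931-46481255) had 125.8, 123.0 and 132.6 CPM in mLN, against 131.1, 131.1 and 128.7 CPM in uLN. Its log2 difference was -0.04 with a 95% interval from -0.14 to 0.07 (edgeR adjusted p = 0.507), and it overlapped too. These intervals limit a change of either gene to a fold between 0.909 and 1.05. Per kb, the ratio of Lgals9 to Havcr2 was 2.47 ± 0.179 in mLN and 2.45 ± 0.0204 in uLN (SD, n = 3 each).

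CD28, the costimulatory receptor best known from T cells, was rare and lower in mLN. Cd28 (chr1:60746388-60773359) had 5, 3 and 4 reads in mLN libraries, against 10, 21 and 16 in uLN, and the groups did not overlap. That is 0.223 ± 0.0538 CPM in mLN and 0.893 ± 0.307 CPM in uLN (SD, n = 3 each), a log2 fold change of -1.96 ± 0.44 (SE) and an edgeR adjusted p of 0.00249. The call held under the 12 settings, with an adjusted p of 0.00248 to 0.0163, but a fold from so few reads is known only roughly. Cd28 also passed the expression filter through its uLN libraries alone, the group where it was higher. T cell markers moved in the same direction as a sum, 5.81 to 7.84 CPM in mLN and 10.2 to 11.2 CPM in uLN. Of the 10 measured, 3 were tested, Cd4 and Cd247 fell and Cd8a was not called. Cd4 had 7, 13 and 12 reads in mLN and 39, 32 and 31 in uLN, and would not have passed the filter on its mLN libraries alone. Under the filter, Zap70 had 6, 4 and 6 reads in mLN and 2, 0 and 0 in uLN, and Lck had 8, 6 and 4 in mLN and 0, 2 and 2 in uLN, so these kinase genes were on the other side, with no overlap. Of the defining T cell genes, Cd3g, Cd5 and Cd6 had at most 1 read in any library, and Cd3d had 3 to 6 reads in mLN and 1 to 8 in uLN. The part of T cells in the Cd28 value was not tested.

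CD73 was also rare. Nt5e (chr9:88327609-88372089) had 26, 11 and 11 reads in mLN libraries, against 5, 6 and 7 in uLN, so that mLN replicate 1 alone carried more than the other mLN libraries together. The levels were 0.889 ± 0.463 CPM in mLN and 0.343 ± 0.0579 CPM in uLN (SD, n = 3 each), with a log2 fold change of 1.36 ± 0.46 (SE) and an edgeR adjusted p of 0.0217. Without mLN replicate 1 the log2 fold change was 0.85 and was no longer called (edgeR adjusted p = 0.128). The call was also lost without uLN replicate 1 or 2 (edgeR adjusted p = 0.0764 and 0.0617). With all libraries it was lost in DESeq2 (adjusted p = 0.0526) and in the edgeR test against a 1.5-fold change (adjusted p = 0.122). Over the 12 settings the adjusted p ran from 0.0139 to 0.128. The summed markers of stromal cells, epithelial cells and melanocytes peaked in mLN replicate 1, though not every marker did. Stromal markers summed to 117.9 CPM in mLN replicate 1, against 18.5 and 32.2 CPM in the other mLN libraries and 20.9 to 29.9 CPM in uLN. Of these, Pdgfrb was called lower, at 6.41, 6.06 and 6.37 CPM in mLN, against 16.4 to 19.0 CPM in uLN. Epithelial markers summed to 157.6 CPM there, against 16.2 and 35.1 CPM in the other mLN libraries and 8.04 to 17.3 CPM in uLN. Melanocyte markers summed to 16.2 CPM there, against 7.34 and 8.84 CPM in the other mLN libraries and 5.56 to 7.22 CPM in uLN. Among them Dct had 82 reads in that library, against 7 and 13 in the other mLN libraries and 1 to 8 in uLN. Tyr did not peak there, with 4.82, 5.17 and 5.97 CPM in mLN and 4.64 to 4.97 CPM in uLN, and was not called. The part of such cells in the Nt5e value was not tested.

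**Figure D3:**
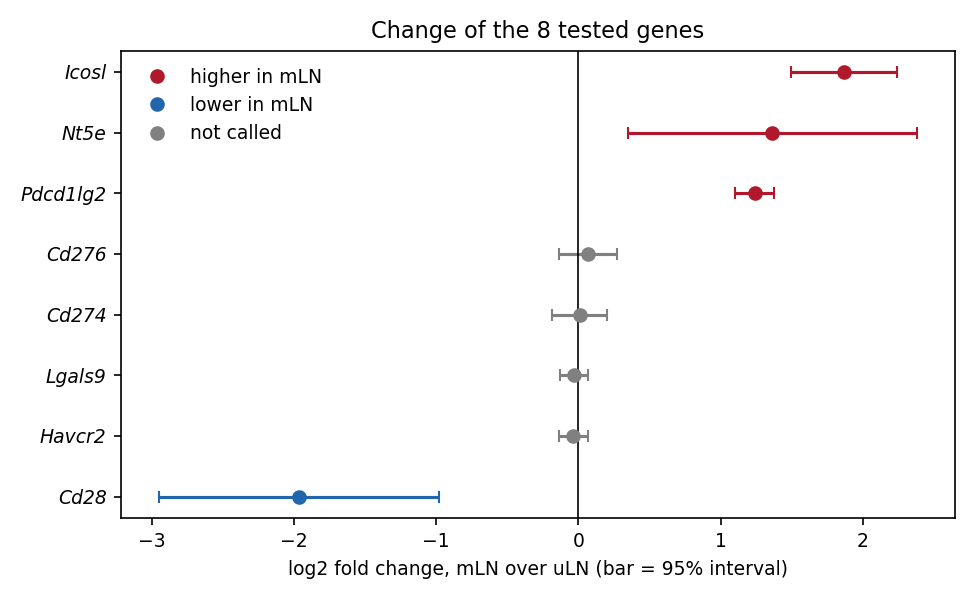
Log2 fold change of mLN over uLN (x axis) for the 8 genes that passed the expression filter; points are edgeR estimates from 3 libraries a group and bars are 95% intervals. Icosl, Nt5e and Pdcd1lg2 lie above 0, Cd28 lies below it at -1.96, and the intervals of Cd276, Cd274, Lgals9 and Havcr2 cross 0.

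Of the 10 genes 8 passed the filter, Cd28 through its uLN libraries alone and Nt5e through its mLN libraries alone. Calls were 3 higher and 1 lower, where 33.2% of all tested genes were called higher and 34.2% lower, 67.4% in all. The groups did not overlap for 4 of the 8, against 72.9% of tested genes. The estimates of the 4 called genes were all past 2-fold, as were 9.7% of tested genes upward and 6.16% downward, though the 95% interval of Nt5e reached down to 1.27-fold. The median log2 fold change of the 8 was 0.04, against -0.01 over the tested genes. By level per kb, both groups had the same leading genes. In mLN Lgals9 led with 115 CPM per kb, then Cd274 with 78.4, Havcr2 with 46.7, Pdcd1lg2 with 28.6, Cd276 with 19.1 and Icosl with 1.58. In uLN the order was Lgals9 (117.5 CPM per kb), Cd274 (78.0), Havcr2 (47.9), Cd276 (18.3), Pdcd1lg2 (12.1) and Icosl (0.432). Adjacent genes in these orders did not overlap over the libraries of a group. The other 4 genes lay under 0.2 CPM per kb in every library and several of them overlapped.

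Further lists of genes by role are described next, and 69.2% to 85.7% of their tested genes were called, where the table as a whole had 67.4%, in both directions about equally. Their counts are given as a description, and nothing particular to a list is read from them.

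Among receptors and binding partners of these proteins, 8 of 9 listed genes were measured and 5 tested, of which 3 rose and 1 fell. The listed gene that was not measured was Pdcd1, which encodes PD-1. Treml2, reported in mouse as a receptor of B7-H3, had 265 ± 19.5 CPM in mLN and 129.7 ± 2.56 CPM in uLN (SD, n = 3 each), a 2.05-fold rise (edgeR adjusted p = 1.44e-07). Both listed partners of galectin-9 rose, Cd44 by 1.90-fold and P4hb by 1.58-fold. Hmgb1, a chromatin protein that TIM-3 binds outside the cell, fell to 198 ± 3.86 CPM in mLN, against 371 ± 5.37 CPM in uLN (SD, n = 3 each; edgeR adjusted p = 3.80e-08). Ceacam1, another TIM-3 partner, had 83, 53 and 36 reads in mLN and 25, 31 and 45 in uLN and was not called (edgeR adjusted p = 0.0665), though it was without mLN replicate 3 or uLN replicate 3, over a range of 0.0118 to 0.499. Ctla4 had 0, 4 and 0 reads in mLN and 0 in each uLN library. Icos, the receptor of ICOS ligand, had 0, 3 and 2 reads in mLN and 7, 7 and 5 in uLN, and Rgmb, a partner of PD-L2, had 11, 4 and 2 in mLN and 8, 11 and 7 in uLN. These last 3 genes were under the filter.

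Other checkpoint and costimulatory surface genes were also listed by role. Of 31 listed, 28 were measured and 21 tested, 10 of them higher and 8 lower, with a median log2 fold change of 0.12. Sirpa, the receptor of the "do not eat" signal CD47, fell to 132.5 ± 4.19 CPM in mLN, against 248 ± 4.23 CPM in uLN (SD, n = 3 each). Its ligand gene Cd47 differed by 0.12 on the log2 scale, a call lost without any 1 uLN library (edgeR adjusted p = 0.0380 with all libraries, 0.00599 to 1 over the settings). Lgals3, which encodes galectin-3, fell by 0.51 on the log2 scale. Others are named after their values were seen. Tnfsf9, the ligand of the T cell costimulator 4-1BB, rose 3.80-fold to 20.6 ± 1.93 CPM in mLN, against 5.42 ± 0.597 CPM in uLN (SD, n = 3 each). Lag3, an inhibitory receptor, rose 2.75-fold, and Cd200r1, which restrains mast cells and other myeloid cells, rose 2.70-fold. Cd24a rose 5.10-fold, and Cd96, a receptor of T and NK cells, fell to 90.6 ± 9.68 CPM in mLN, against 219 ± 7.29 CPM in uLN (SD, n = 3 each). Arg1, whose enzyme breaks down arginine that T cells need, had 96, 92 and 90 reads in mLN libraries, against 4, 1 and 3 in uLN, and rose (edgeR adjusted p = 3.65e-07). It passed the expression filter through its mLN libraries alone, the group where it was higher.

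**Figure D4:**
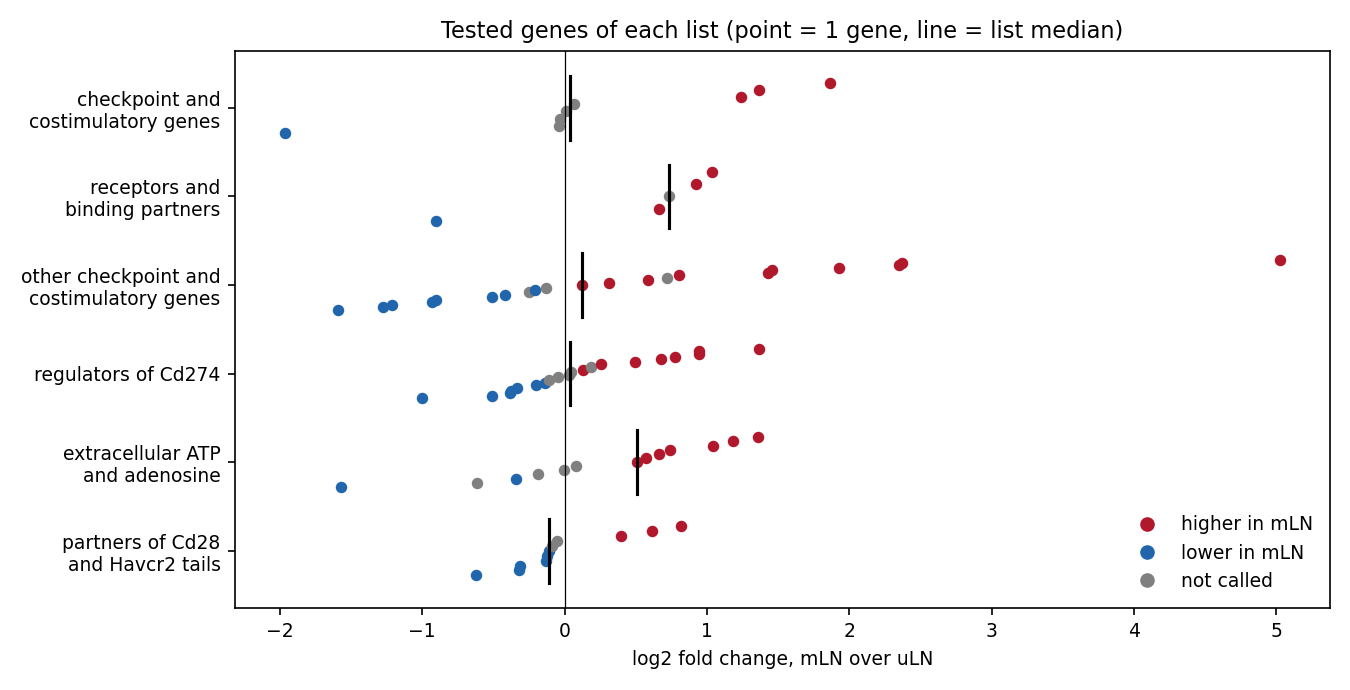
Log2 fold change of mLN over uLN (x axis) of the tested genes in each list (rows), 1 point a gene, coloured by whether edgeR called it higher, lower or neither; the black line is the list median. The 8 tested checkpoint and costimulatory genes have a median of 0.04, and each list holds genes on both sides of 0.

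Of the regulators of PD-L1, all 20 listed genes were tested, 8 were higher and 7 lower, and the median log2 fold change was 0.04. The most abundant were Jak1, not called at 0.03 on the log2 scale, Stat3, higher by 0.13, and Jak2, which fell by 0.38. The call of Stat3 was lost without uLN replicate 1 or 3 (edgeR adjusted p = 0.0215 with all libraries, 0.00328 to 1 over the settings). Others are again named after their values were seen. Irf1, the interferon gamma effector that drives the PD-L1 gene, rose 1.92-fold to 89.4 ± 7.33 CPM in mLN, against 46.6 ± 3.72 CPM in uLN (SD, n = 3 each). Cmtm6 and Cmtm4, which in human cells keep PD-L1 protein from being degraded, rose 1.71-fold and 2.57-fold. Socs1, a feedback inhibitor of the same interferon route, rose 1.93-fold, and Myc fell to 5.14 ± 0.291 CPM in mLN, against 10.3 ± 0.223 CPM in uLN (SD, n = 3 each). The others called lower were Nfkb1, by 0.51 on the log2 scale, Hif1a by 0.38, Stat6 by 0.33, Ptpn2 by 0.20 and Rela by 0.14. The call of Rela was lost without uLN replicate 1. The PD-L1 transcript itself was not called in the same libraries.

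Genes that act before and after CD73 on extracellular nucleotides were listed too. Of 20 measured 13 were tested, 7 rose and 2 fell, with a median log2 fold change of 0.51. Entpd1, which encodes CD39 and supplies AMP to CD73, had 87.5 ± 2.89 CPM in mLN and 88.0 ± 2.08 CPM in uLN (SD, n = 3 each), a log2 difference with a 95% interval from -0.11 to 0.10. Adk, the kinase that returns adenosine to AMP inside cells, was not called at 0.08 on the log2 scale, except with library size alone as the scaling (edgeR adjusted p = 0.0402, within 0.0402 to 1 over the settings). Adora3, the adenosine receptor known to amplify degranulation in rodent mast cells, fell to 62.3 ± 11.1 CPM in mLN, against 184.8 ± 10.4 CPM in uLN (SD, n = 3 each; edgeR adjusted p = 6.04e-07). Adora2a and Adora2b, named after their values were seen, rose 1.67-fold and 2.06-fold.

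Of 12 cytosolic partners of the CD28 and TIM-3 tails, 11 were tested, 3 rose and 6 fell, and the median log2 fold change was -0.11. Lcp2, the adaptor SLP-76, fell by 0.31 on the log2 scale and Grb2 fell by 0.13. Bag6, which binds the TIM-3 tail, differed by -0.11 (edgeR adjusted p = 0.0438), a call lost without each of mLN replicates 1 and 2 and uLN replicates 1, 2 and 3 and with other scalings, over a range of 0.00494 to 1. Lck, the T cell kinase that CD28 uses, was the 1 gene of this list under the filter, with the few reads given above, and is named after its values were seen.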

How the data were processed

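RNA of mast cells from mLN (3 libraries) and uLN (3) was made into mRNA libraries with a BGI DNBSEQ kit, per the labels' protocols. cutadapt, FastQC and TopHat were used with GRCm38, per the submitters' processing notes. The authors deposited estimated counts per gene, with no scaling stated. Between 32.2% and 32.8% of values in a library were not exactly whole (no tolerance), among them all 6 of Cd274 and of Havcr2, as estimated counts need not be. They were rounded, and 1 row naming no gene was left out. No source used here names the counting tool or its use of strand, so reads of RNAs annotated over Cd274, Pdcd1lg2 and Cd276 on the other strand (GENCODE M21) cannot be told apart from theirs.

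edgeR 4.0.16 in R 4.3.3 (quasi-likelihood test, TMM, default expression filter) tested 12706 genes, called at a Benjamini-Hochberg adjusted p under 0.05. The standard error was the log2 fold change over the square root of F. CPM are TMM-scaled, and CPM per kb divide by the union of GENCODE M21 exons, as the isoforms in use are unknown. The test was checked on simulated data in which a far smaller share of genes changed than was called here. That check does not cover changes as widespread as these. Alternatives were DESeq2 1.42.0 and its size factors, library size alone, no filter, a test against a 1.5-fold change, a replicate block and leaving out each library.

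The genes and lists were chosen with earlier results of these data known, and the lists for role. All 10 genes, all receptors and partners and the 3 most abundant genes of each other list are named, and further names from these lists are marked. Cell type markers and neighbouring genes are named only in part. Some listed genes were not analysed here. The labels do not say whether replicates are separate animals, so p-values measure a spread between libraries that may be technical. Coordinates and promoters are from RefSeq, GRCm38.p6.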

Additional observations from a re-analysis of the deposited data

How the results depend on the processing

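Of the 96 member results under the alternatives, 89 kept their direction and side of the threshold, or were called in neither. Over the left-out libraries the log2 fold change of Cd274 ran from -0.12, without mLN replicate 3, to 0.072, without mLN replicate 2, and without mLN replicate 3 the members called lower numbered 2 in place of 1 (1 to 2 over the left-out libraries). The test against a 1.5-fold change called 1497 genes higher and 1169 lower, in place of 4219 and 4348. In it the other checkpoint genes gave 6 higher and 4 lower, the Cd274 regulators 4 and 1, the adenosine route 3 and 1, and the partners of Cd28 and Havcr2 gave 1 and 0. That test asks for a larger change, so fewer calls follow from its construction. Same-numbered libraries had correlations of 0.03, -0.14 and -1e-04 in their deviations from the group means. With 3 libraries a group, these values cannot decide whether the replicate numbers pair the libraries. With a replicate block 4124 genes were higher and 4262 lower, and 3 members higher and 1 lower, as without it. Low depth limits Cd28, Nt5e, Cd80 and Cd86, each with under 30 reads per library.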

Other observations

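Genes beside the members varied too. Ric1, the next protein-coding gene after Pdcd1lg2, had 53.6 ± 7.61 CPM in mLN and 37.0 ± 1.65 CPM in uLN (SD, n = 3 each), a rise of 0.53 on the log2 scale (edgeR adjusted p = 4.61e-04), and Rln1, before Cd274, had at most 1 read in any library. Nos2, which encodes inducible nitric oxide synthase and lies 2753 bases from Lgals9, had 16, 9 and 15 reads in mLN libraries, against 0, 3 and 1 in uLN, and was under the filter. Snx14, 4666 bases from Nt5e, had 103 ± 9.97 CPM in mLN and 66.5 ± 4.07 CPM in uLN (SD, n = 3 each), and rose by 0.63 on the log2 scale. Raph1, the nearest protein-coding gene before Cd28, lies 179314 bases from it. Its level fell to 3.48 ± 0.592 CPM in mLN, against 9.85 ± 1.11 CPM in uLN (SD, n = 3 each). Insyn1 and Nptn, beside the uncalled Cd276, were also called higher. Called lower were Adprh and Timmdc1 beside the untested Cd80, Med7 beside the uncalled Havcr2 and Ksr1 beside the uncalled Lgals9. These neighbours are named after their values were seen. As 67.4% of all tested genes were called, nothing is read from their place. Among the 11 tested macrophage markers, Adgre1, Cd68 and Marco rose while Csf1r, Mertk, Cd163, C1qb, C1qc, Lyz2, Gpnmb and Cd5l fell.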
